A study of Mus musculus with 4 samples.

Results

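The autophagy machinery is described here through 35 genes that encode its initiation, lipid kinase, membrane, conjugation and receptor parts. They were taken as a list of gene symbols, not by their signal, though earlier results of these data were known when the list was made. Every probe whose transcript identifier belongs to a listed symbol was collected. This gave 55 probes of the 56605 on the array, and 35 of 23451 genes with a value. Each gene was read from its brightest probe, 20 genes having 1 probe and 15 having several. Autophagy encloses cytoplasm in a double membrane that grows into an autophagosome and fuses with the lysosome. A kinase complex starts the process, a lipid kinase marks the membrane, and a pair of ubiquitin-like systems attach LC3 and GABARAP proteins to it, which receptors then use to load cargo. In dendritic cells the pathway is known to deliver cytoplasmic antigen and microbes to lysosomes and to feed peptides to MHC class II.

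RNA came from bone marrow-derived dendritic cells of male wild-type C57BL/6J mice, grown from femur marrow with 10 ng/ml GM-CSF and collected on day 6. The 4 groups were LPS (100 ng/ml) with L-(+)-LA (20 mM), LPS alone, LA alone and medium without stimulation, where the 3 treatments lasted 4 h. LPS is a bacterial cell wall component sensed by TLR4, and LA is not spelled out in the labels, while the series title speaks of lactate. All groups share the GM-CSF culture, and each group was 1 sample on 1 single-colour array. There is therefore no replicate, no p-value and no measure of the spread between cultures, and every difference below is one between individual arrays.

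Levels are log2 processed signals from which the 75th percentile of each array was taken, so 0 is a signal at that percentile, and differences are on the same log2 scale. To count as measured, a gene needed a probe well above background on each of the arrays compared. Measured genes at least 2-fold apart (1 log2 unit) or, as a second rule, 1.5-fold apart (0.58 log2 units) were counted. The share of spots well above background ran between 56.5% (LPS) and 64.1% (LA). Probes printed 10 times had a median SD between spots of 0.051 to 0.054, or 0.074 for a difference, an error that leaves out culture, labelling and hybridisation. In bulk RNA, fewer cells of a type and less RNA per cell cannot be told apart. All 9 dendritic cell markers examined were above background on all 4 arrays, with Flt3 between -3.18 and -2.12 and Cd74 between 6.88 and 7.01, and several of them were lower on the arrays with LA, as given with the other cell markers at the end. Neutrophil markers were above background too, S100a9 lying between 7.96 and 8.44.

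The 35 genes spanned a wide range of signal. In medium the lowest stood at -3.22 (Wipi2) and the highest at 4.45 (Gabarapl1), with a median of -0.04, against a median of -2.14 for all genes on the array. All 35 were well above background with LPS and LA, with LA and in medium, and 34 were with LPS, the exception being Wipi2. The LPS array held the lowest median level of the 35, -0.65, compared with -0.16 with LPS and LA, -0.23 with LA and -0.04 in medium.

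**Figure D1:**
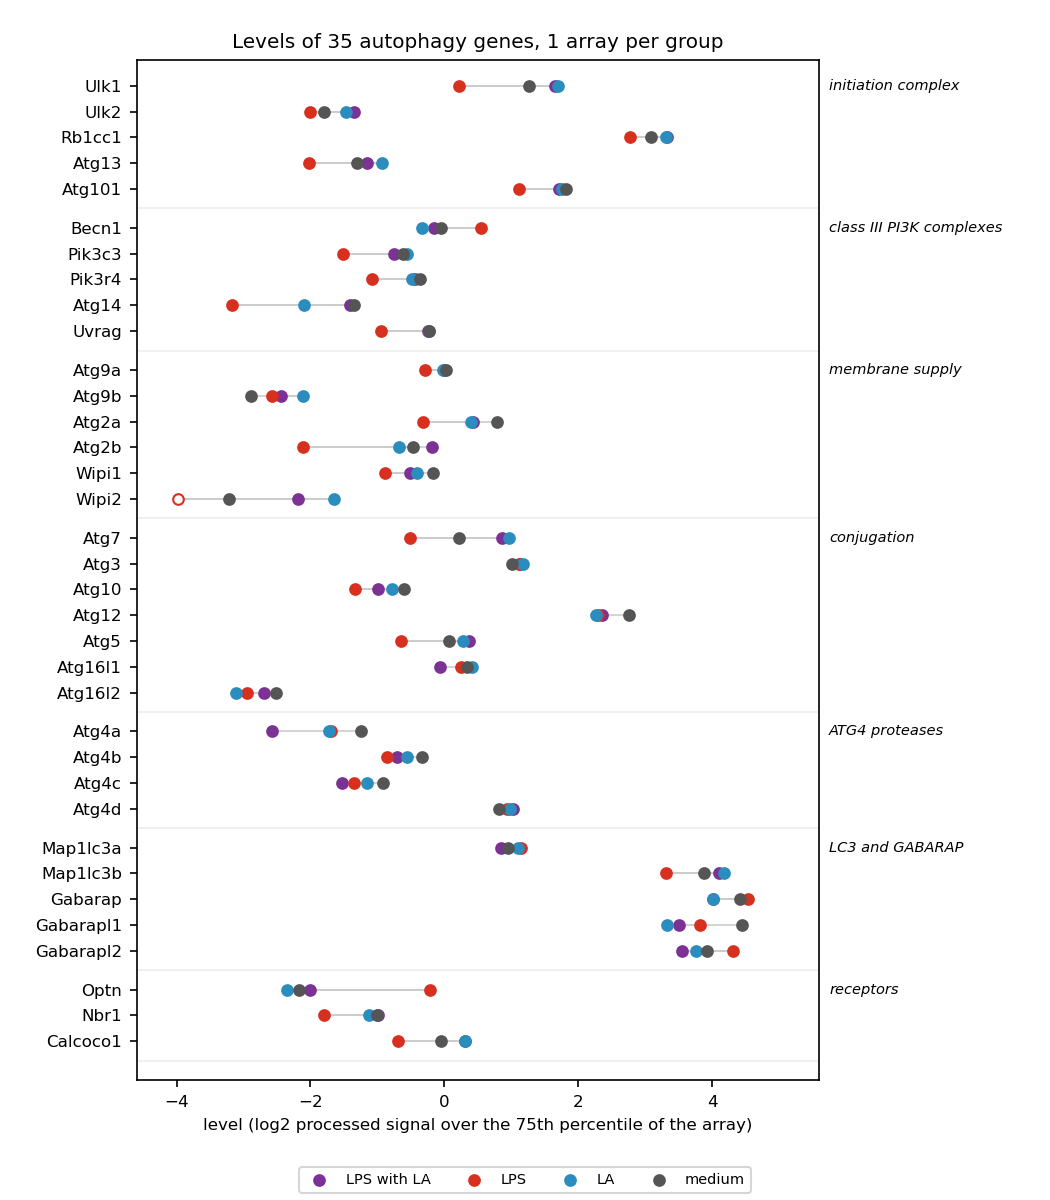
Level of each of the 35 autophagy genes (rows, grouped by role) on the 4 arrays, as log2 processed signal over the 75th percentile of the array; 1 point per array, open where the probe was not well above background, with no error bars because each group is 1 array. The LPS points lie left of the other points for most genes of the initiation, lipid kinase and membrane parts, and far to the right for Optn.

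Set against medium, the LPS array had values below 0 for 26 of 34 measured members and above 0 for 8, many of them small, and 16 lay within 1.5-fold. Of 34 measured members, 16 (47.1%) were at least 1.5-fold lower and 2 (5.88%) higher, where 18.1% of 13592 measured genes were lower and 15.8% higher by that rule. At least 2-fold lower were 4 members, Atg14, Atg2b, Atg2a and Ulk1, and 1 was higher, Optn, beside 7.50% and 8.14% of all measured genes. The median difference of the members was -0.54 (quartiles -0.72 and -0.12), compared with 0.00 for all measured genes (quartiles -0.42 and 0.35). Genes with a mean level between -1.24 and 1.06, the middle of the members' own range, had a median of -0.11, and 23.9% of them were at least 1.5-fold lower, so part of the distance to all genes goes with signal level. With normexp background correction, which adds an offset of 50 to each signal, 0 members were at least 2-fold lower and 6 at least 1.5-fold lower, beside 2.34% and 9.76% of all genes. The values of Pik3c3 (-0.90) and Ulk1 (-1.04) lay on either side of the 2-fold threshold, and Map1lc3b (-0.56) and Becn1 (0.59) on either side of the other.

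With LPS and LA against LPS, 25 of 34 measured members had values above 0 and 9 below, and 15 lay within 1.5-fold. Of 34 measured members, 15 (44.1%) were at least 1.5-fold higher and 4 (11.8%) lower, where 22.2% of 13631 measured genes were higher and 21.8% lower. At least 2-fold higher were 5 members, Atg2b, Atg14, Ulk1, Atg7 and Atg5, and Optn was lower, beside 11.5% and 12.5% of all genes. The median was 0.36 (quartiles -0.14 and 0.78) for the members and 0.00 for all genes (quartiles -0.49 and 0.50). Among genes of the members' middle level range the median was 0.14, and 28.6% were at least 1.5-fold higher. Normexp left 7 members at least 1.5-fold higher and 2 at least 2-fold higher (13.9% and 4.65% of all genes), and the scaling of the authors' deposited table gave 20 and 15 (41.1% and 22.7% of all genes). There, a single member was lower by either rule. The LPS array enters this comparison and the previous one with opposite sign, so they are not independent.

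**Figure D2:**
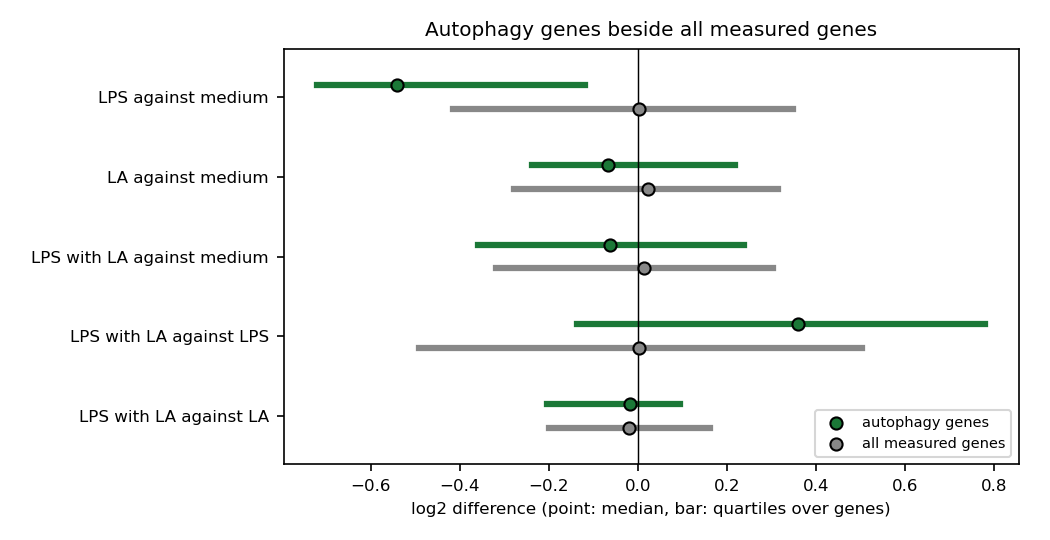
Median (point) and quartiles (bar) of the log2 difference over the measured autophagy genes and over all measured genes in each of the 5 comparisons; bars show the spread over genes, not over replicates. The autophagy median lies at -0.54 for LPS against medium and at 0.36 for LPS with LA against LPS, and within 0.09 of the median of all genes in the other comparisons.

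The 3 comparisons that leave out the LPS array gave small differences. LA against medium had a median of -0.07 over the members and 0.02 over all genes, with 3 of 35 members at least 1.5-fold higher and 3 lower, beside 11.2% and 10.8% of 14554 genes. By the 2-fold rule 1 was higher (Wipi2) and 1 lower (Gabarapl1), beside 3.12% and 3.33%. LPS with LA against medium had a median of -0.06 and 0.01 for all genes, with 2 of 35 members 1.5-fold higher and 3 lower, beside 10.9% and 12.5% of 14519 genes. At least 2-fold apart were Wipi2 (1.03) and Atg4a (-1.33), beside 3.0% higher and 3.98% lower. LPS with LA against LA had medians of -0.02 for the members and -0.02 for all genes, with Atg14 (0.69) the 1 member 1.5-fold higher and Atg4a (-0.85) the 1 lower, beside 4.07% and 5.35% of 14903 genes, and 0 members were 2-fold apart either way (0.906% and 1.5%). These shares are near or under those of all genes. The LA difference with LPS minus that without it had a median of 0.51 over 34 members and -0.02 over 13368 genes. It uses all 4 arrays, the LPS array among them, so it is not independent of the comparisons above. By 2-fold, 4 members were higher and 1 lower (8.97% and 9.70% of all genes), and by 1.5-fold 15 were higher and 3 lower (19.9% and 19.1%).

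**Figure D3:**
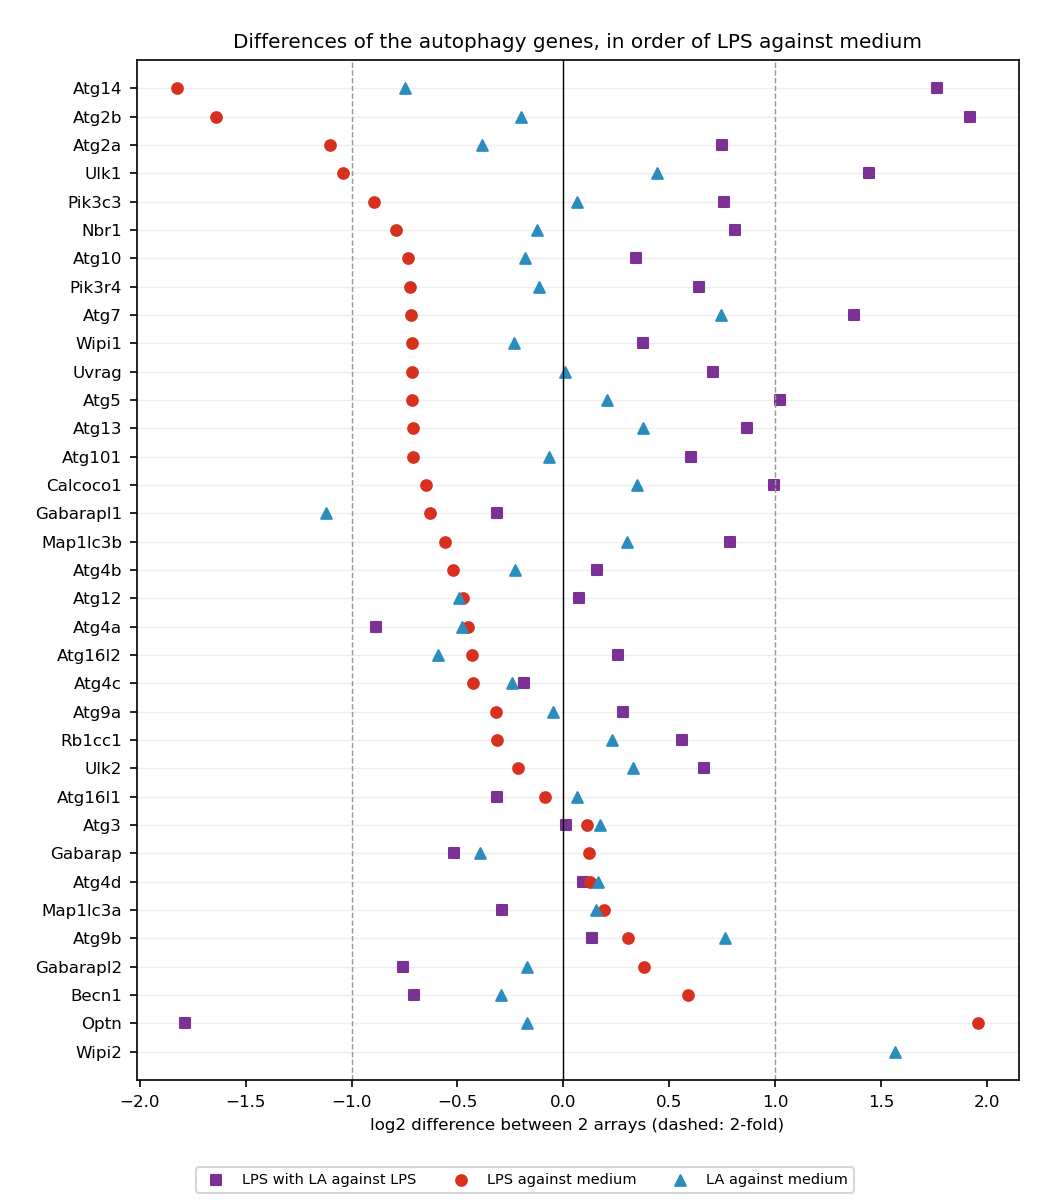
Log2 difference of each autophagy gene for LPS with LA against LPS (squares), LPS against medium (circles) and LA against medium (triangles), ordered by LPS against medium; each symbol is a difference between 2 arrays without error bars, and dashed lines mark 2-fold. Atg14 is at the top with -1.83 for LPS against medium and Optn near the bottom with 1.96, and Wipi2 has only an LA value because it was not well above background with LPS.

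The initiation complex receives nutrient signals and starts autophagosome formation. Ulk1, its protein kinase, stood at 1.66 with LPS and LA, 0.22 with LPS, 1.70 with LA and 1.26 in medium. The LPS array was the lowest, 2.06-fold under medium, and LPS with LA was 2.72-fold over LPS. The other probe of Ulk1 gave -0.97 for LPS against medium and 1.35 for LPS with LA against LPS. Under the 8 alternative settings the brightest probe gave 1.16 to 1.86 for the second of these, and -1.28 to -0.88 for the first, which was under 2-fold with median scaling and normexp.

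Atg13, the regulatory subunit that links the kinase to its scaffold, had levels of -1.15 with LPS and LA, -2.02 with LPS, -0.93 with LA and -1.31 in medium. Atg101, the HORMA-domain partner of ATG13, had 1.72, 1.11, 1.76 and 1.82 in the same order. Both were 1.64-fold lower with LPS than in medium, and Atg101 kept a difference of at least 1.5-fold under all 8 alternative settings (-0.95 to -0.65). Ulk2, a second kinase of the family, was dimmer at -1.35 with LPS and LA, -2.01 with LPS, -1.47 with LA and -1.80 in medium. It was 1.58-fold higher with LPS and LA than with LPS, and 1.16-fold lower with LPS than in medium, while its other probe gave 1.40 and -0.42.

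Rb1cc1 encodes FIP200, the large scaffold of the complex, and its 6 probes disagreed. The brightest stood at 3.33 with LPS and LA, 2.77 with LPS, 3.32 with LA and 3.09 in medium, and the second brightest at 2.34, 2.19, 2.46 and 2.35. Neither was 1.5-fold apart from medium with LPS. The other 4 probes, with medium levels between -3.40 and -0.96, were well above background on the 3 other arrays and not well above background with LPS. The brightest of these lay at -2.03 with LPS and LA, -3.27 with LPS, -1.60 with LA and -0.96 in medium. All 6 probes were designed on 1 transcript identifier, and no bound is given for the dim ones because other probes of the gene were bright.

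**Figure D4:**
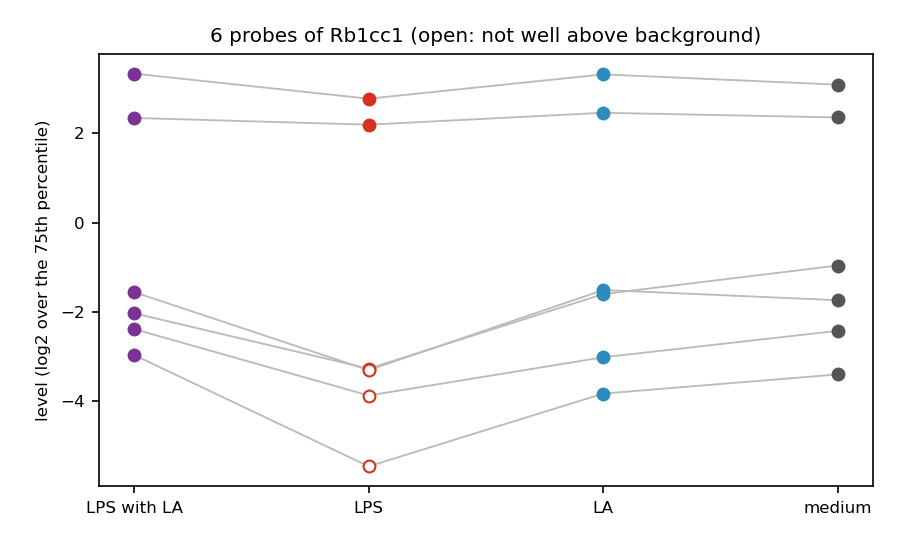
Level of the 6 probes of Rb1cc1 on the 4 arrays, as log2 over the 75th percentile of the array; each line joins the values of 1 probe, and open points were not well above background. The upper 2 probes lie between 2.19 and 3.33 on every array, and the lower 4 are open with LPS.

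The class III phosphatidylinositol 3-kinase makes the lipid that marks the growing membrane. Pik3c3 is its catalytic subunit, with levels of -0.76 with LPS and LA, -1.52 with LPS, -0.56 with LA and -0.62 in medium. Pik3r4, the regulatory subunit, had -0.44, -1.08, -0.48 and -0.36 in that order. Their values with LPS were the lowest of each row, 1.86-fold and 1.65-fold under medium, and the other 3 arrays lay within 0.20 of each other for either gene.

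Atg14 and Uvrag encode alternative subunits that send the kinase to autophagosome formation or to endosomes. Atg14 stood at -1.41 with LPS and LA, -3.18 with LPS, -2.10 with LA and -1.35 in medium. It showed the lowest difference of the list with LPS, 3.55-fold under medium, and was 3.40-fold higher with LPS and LA than with LPS. Its level with LPS was close to the dimmest signal that was well above background on that array (-3.49), and normexp reduced the differences to -0.70 and 0.69. Uvrag had levels of -0.24 with LPS and LA, -0.95 with LPS, -0.23 with LA and -0.23 in medium, so that all arrays except LPS were alike.

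Becn1, the beclin scaffold that holds these subunits together, went the other way. Its levels were -0.16 with LPS and LA, 0.55 with LPS, -0.34 with LA and -0.04 in medium. It was 1.51-fold higher with LPS than in medium and 1.63-fold lower with LPS and LA than with LPS. The first difference was under 1.5-fold with quantile normalization, normexp, the authors' scaling and scaling over probes detected on every array. The second was under 1.5-fold with the last 2 of these and normexp, the smallest value being -0.28.

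Membrane for the autophagosome comes from ATG9 vesicles and from lipids carried by ATG2 proteins, which dock on WIPI proteins. Atg2b, a lipid transfer protein, stood at -0.19 with LPS and LA, -2.11 with LPS, -0.67 with LA and -0.47 in medium. That is 3.12-fold lower with LPS than in medium and 3.79-fold higher with LPS and LA than with LPS, the first being under 2-fold with normexp (-0.88). Of its 2 other probes, 1 was not well above background with LPS and the other was above background with LA alone. Atg2a, its paralogue, had 0.43 with LPS and LA, -0.32 with LPS, 0.40 with LA and 0.78 in medium. The LPS value was 2.15-fold under medium, and LPS with LA was 1.68-fold over LPS and 1.28-fold under medium.

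Wipi1, which binds the lipid made by the kinase, had -0.51 with LPS and LA, -0.89 with LPS, -0.40 with LA and -0.17 in medium, 1.64-fold lower with LPS than in medium. Another Wipi1 probe gave 1.01 for LPS with LA against medium and 0.69 for LA against medium, where the brightest gave -0.34 and -0.23. Wipi2, which recruits ATG16L1 to that lipid, was dim throughout, at -2.18 with LPS and LA, -3.98 with LPS, -1.65 with LA and -3.22 in medium. It was 2.96-fold higher with LA than in medium, or 0.55 log2 units with normexp. With LPS its probe was not well above background, so it was at least 2.48-fold higher with LPS and LA than with LPS and at least 1.21-fold lower with LPS than in medium. The transmembrane scramblase gene Atg9a stayed between -0.29 (LPS) and 0.03 (medium). Its paralogue Atg9b, also dim, had -2.44, -2.58, -2.12 and -2.88 and was 1.70-fold higher with LA than in medium.

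The conjugation enzymes attach ATG12 to ATG5 and LC3 to lipid. Atg7, the E1-like enzyme of both systems, stood at 0.86 with LPS and LA, -0.51 with LPS, 0.96 with LA and 0.22 in medium. LPS with LA was 2.59-fold over LPS, LPS was 1.65-fold under medium, and LA was 1.68-fold over medium, so both arrays with LA lay above medium. A second Atg7 probe gave 1.93 for LPS with LA against LPS, -0.90 for LPS against medium and 0.60 for LA against medium.

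Atg5, which joins ATG12 and ATG16L1 in the complex that places LC3, had 0.37 with LPS and LA, -0.65 with LPS, 0.27 with LA and 0.07 in medium. This was 2.03-fold higher with LPS and LA than with LPS, just past the threshold, and was under 2-fold with median scaling and normexp (0.74). Atg10, the E2-like enzyme for ATG12, had -0.99, -1.33, -0.78 and -0.60 in that order, and was 1.67-fold lower with LPS than in medium (-0.74, or -0.45 by its other probe). The E2-like enzyme for LC3, Atg3, did not follow these genes, with levels of 1.13 with LPS and LA, 1.12 with LPS, 1.18 with LA and 1.01 in medium. Atg12 itself stood at 2.36, 2.29, 2.27 and 2.77, so that the 3 treated arrays were alike and 1.32- to 1.41-fold under medium. Atg16l1, the membrane-binding partner, stayed between -0.06 (LPS with LA) and 0.41 (LA). The dim Atg16l2 had -2.69, -2.95, -3.11 and -2.52 and was 1.51-fold lower with LA than in medium.

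Promoter sequences were examined because TFEB, a factor that induces autophagy genes, is known to bind the E-box letters CACGTG. RefSeq promoters (GRCm38.p6) matched 29 of the 35 genes in 32 windows, of which the 250 bases before the start were searched on both strands. The E-box was present in 3 windows (9.38%), those of Atg3, Atg5 and Atg7, against 6.02% of all 32851 windows. The longer TCACGTGA, which contains the E-box, was present in 1, that of Atg3, against 0.785% of all. The kB consensus was present in 1, Atg16l2 (3.13% against 3.90%), and the interferon-stimulated response element core in 0 (2.98% of all). Median GC content was 58.2% in the member windows and 52.4% in all windows, and the shares were not matched for it. The windows with an E-box are shown first, with its letters in capitals, followed by those of the members with the highest and the lowest difference for LPS against medium, which hold none of these motifs.
Atg3 (chr16:45158579-45158828, plus strand): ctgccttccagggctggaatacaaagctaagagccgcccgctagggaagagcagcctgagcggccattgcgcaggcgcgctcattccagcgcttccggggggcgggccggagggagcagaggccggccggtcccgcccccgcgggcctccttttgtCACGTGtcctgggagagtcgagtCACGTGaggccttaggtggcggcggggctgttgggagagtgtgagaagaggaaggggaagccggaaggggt
Atg5 (chr10:44268089-44268338, plus strand): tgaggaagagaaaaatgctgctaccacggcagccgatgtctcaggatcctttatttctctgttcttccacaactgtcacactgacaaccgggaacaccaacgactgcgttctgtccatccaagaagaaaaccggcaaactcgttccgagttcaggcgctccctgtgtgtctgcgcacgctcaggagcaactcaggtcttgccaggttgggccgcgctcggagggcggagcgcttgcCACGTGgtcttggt
Atg7 (chr6:114670846-114671095, plus strand): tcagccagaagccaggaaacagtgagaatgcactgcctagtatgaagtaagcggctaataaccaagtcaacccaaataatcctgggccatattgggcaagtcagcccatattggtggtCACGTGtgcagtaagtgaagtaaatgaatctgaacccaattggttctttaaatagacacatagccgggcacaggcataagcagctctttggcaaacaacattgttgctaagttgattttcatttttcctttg
Optn (chr2:5064118-5064367, minus strand): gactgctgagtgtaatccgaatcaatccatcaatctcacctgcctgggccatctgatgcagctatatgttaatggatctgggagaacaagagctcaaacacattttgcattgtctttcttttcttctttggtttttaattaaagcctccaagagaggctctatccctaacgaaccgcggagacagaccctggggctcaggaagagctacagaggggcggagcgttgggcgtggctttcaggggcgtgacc
Atg14 (chr14:47568435-47568684, minus strand): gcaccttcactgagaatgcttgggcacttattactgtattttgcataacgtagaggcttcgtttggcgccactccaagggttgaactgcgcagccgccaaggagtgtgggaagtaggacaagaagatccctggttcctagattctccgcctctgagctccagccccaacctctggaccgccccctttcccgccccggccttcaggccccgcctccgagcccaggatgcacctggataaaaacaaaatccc
The E-box of Atg5 ends 9 bases and that of Atg7 127 bases before the start, and those of Atg3 end 66 and 89 bases before it. Atg3 therefore holds the E-box in 2 copies, and Atg5 and Atg7 hold 1 copy each. Atg3 was within 1.13-fold in all 5 comparisons, and Atg5 and Atg7 were 2.03-fold and 2.59-fold higher with LPS and LA than with LPS. Atg2b, Atg14 and Ulk1 had larger differences in that comparison (1.92, 1.76 and 1.44 log2 units). The window of Atg14 holds no E-box, and 6 members had no window to search. Whether the letters go with the differences was not tested. A match of letters is a description and not a binding site.

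ATG4 proteases trim LC3 and GABARAP proteins before conjugation and release them from lipid afterwards. Atg4a stood at -2.58 with LPS and LA, -1.70 with LPS, -1.73 with LA and -1.25 in medium. The combined treatment was the lowest, 1.85-fold under LPS, 1.80-fold under LA and 2.52-fold under medium, and Atg4a was the 1 member past 2-fold lower in the last of these. With normexp these differences became -0.36, -0.25 and -0.45. Atg4c had -1.53 with LPS and LA, -1.35 with LPS, -1.16 with LA and -0.92 in medium, 1.53-fold lower with LPS and LA than in medium. Atg4b ran between -0.86 (LPS) and -0.34 (medium) and Atg4d between 0.81 (medium) and 1.03 (LPS with LA), and by these probes neither was 1.5-fold apart in any comparison. A second, dimmer Atg4b probe gave -0.82 for LPS against medium and 0.93 for LPS with LA against LPS, both past 1.5-fold. The first difference of Atg4b was also past 1.5-fold with the mean of probes (-0.67), the percentile over probes detected on every array (-0.64) and the authors' deposited table (-0.76).

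The LC3 and GABARAP genes encode the ubiquitin-like proteins that coat autophagosome membranes. Probes differ in sensitivity, so levels are compared between arrays and not between genes. Map1lc3b stood at 4.11 with LPS and LA, 3.32 with LPS, 4.18 with LA and 3.88 in medium. It was 1.73-fold higher with LPS and LA than with LPS. Its other probe gave 2.41, 2.09, 2.24 and 2.90, so that LPS was lowest by either probe, while LA lay above medium by the first and below it by the second.

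Gabarapl1 had 3.51 with LPS and LA, 3.82 with LPS, 3.33 with LA and 4.45 in medium. All 3 treated arrays were lower than medium, by 1.92-fold with LPS and LA, 1.55-fold with LPS and 2.17-fold with LA, and the second probe gave -0.78, -0.54 and -0.86. The LA difference was under 2-fold with quantile normalization, the mean of probes and the authors' deposited table (down to -0.95). Gabarapl2 had 3.55, 4.31, 3.76 and 3.93 in the same order of arrays and was 1.69-fold lower with LPS and LA than with LPS, which its other probe gave as -0.13. Gabarap stood at 4.02 with LPS and LA, 4.54 with LPS, 4.02 with LA and 4.41 in medium, the arrays with LA being alike and below the others. Map1lc3a had 0.85 with LPS and LA, 1.14 with LPS, 1.11 with LA and 0.95 in medium, within 1.5-fold in all 5 comparisons. Of the 5 genes, 1 was at least 1.5-fold lower with LPS than in medium (median 0.12), beside 18.1% of all measured genes. This count rests on the probe used, since Map1lc3b gave -0.56, just within 1.5-fold, and -0.82 by its other probe. In the initiation complex 3 of 5 were lower (median -0.71) and in the lipid kinase complexes 4 of 5 (median -0.73). Each of these parts holds 5 genes read on 1 pair of arrays.

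Cargo receptors bind both cargo and LC3. Optn, optineurin, which links ubiquitin-coated bacteria and mitochondria to LC3, stood at -2.0 with LPS and LA, -0.22 with LPS, -2.35 with LA and -2.18 in medium. The LPS array was alone in its level, 3.89-fold over medium, and LPS with LA was 3.45-fold under LPS. Both directions held at 2-fold or more under all 8 alternative settings, at 1.20 to 2.02 and at -1.89 to -1.04. Its second probe gave -2.15 with LPS and LA, -1.04 with LPS, -2.15 with LA and -2.25 in medium.

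Nbr1, a receptor for ubiquitinated aggregates and peroxisomes, went the other way at -0.99 with LPS and LA, -1.80 with LPS, -1.13 with LA and -1.01 in medium. It was 1.73-fold lower with LPS than in medium and 1.76-fold higher with LPS and LA than with LPS. Its other, dimmer probe stood at -3.54 with LPS and LA, -3.52 with LPS, -3.36 with LA and -2.78 in medium. That probe was not well above background with LPS. It gave -0.76 for LPS with LA against medium, where the brightest gave 0.02, so the 2 probes of Nbr1 differ on the arrays with LA. Calcoco1, a receptor for the endoplasmic reticulum and Golgi, had 0.30 with LPS and LA, -0.69 with LPS, 0.30 with LA and -0.04 in medium. The arrays with LA were alike, 1.99-fold over LPS for the combined treatment, a difference that stayed past 1.5-fold under all 8 alternative settings (0.74 to 1.42).

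Other genes of the pathway were read from 3 further lists. Of 20 measured upstream regulators, 6 were at least 2-fold lower with LPS than in medium and 0 higher (median -0.57), beside 7.50% and 8.14% of all measured genes. For LPS with LA against LPS 7 of 20 were higher and 2 lower by that rule (median 0.39), beside 11.5% and 12.5%. Deptor, an inhibitor of mTOR, lay at 0.46 with LPS and LA, -1.23 with LPS, 0.34 with LA and 0.21 in medium. Foxo3, a transcription factor that induces autophagy genes, had 1.64, -0.25, 1.22 and 1.06. Rubcn, which restrains the lipid kinase and serves LC3-associated phagocytosis, had 2.67, 0.66, 2.49 and 1.95. These genes were 2.71-fold, 2.48-fold and 2.44-fold lower with LPS than in medium and 3.22-fold, 3.72-fold and 4.02-fold higher with LPS and LA than with LPS.

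Trp53inp1 and Trp53inp2, LC3-binding proteins, gave -1.43 and -0.85 for LPS against medium and 1.30 and 1.36 for LPS with LA against LPS. Tfeb, named here after its values were seen, stood at 1.90 with LPS and LA, 0.62 with LPS, 1.90 with LA and 1.84 in medium, so that LPS was 2.33-fold under medium and the other arrays were alike. Mitf, from the same list and also named after its values were seen, went the other way. It had 0.41 with LPS and LA, 1.70 with LPS, 0.21 with LA and 0.84 in medium. LPS was 1.81-fold over medium, and LPS with LA 2.45-fold under LPS. Ddit4, an mTOR inhibitor, differed with LA instead, at 1.13 with LPS and LA, 3.95 with LPS, 0.56 with LA and 3.73 in medium.

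Among 15 measured receptors and mitophagy genes, 1 was at least 2-fold higher with LPS than in medium and 0 lower, beside 8.14% and 7.50% of all measured genes. With LPS and LA against LPS, 2 of 15 were higher and 2 lower, near the 11.5% and 12.5% of all genes. Sqstm1, the receptor p62, was, like Optn, highest with LPS, at 5.90 with LPS and LA, 8.16 with LPS, 6.05 with LA and 7.0 in medium. Bnip3, a mitochondrial receptor induced by HIF-1, was low on both arrays with LA, at 2.68 with LPS and LA, 5.38 with LPS, 2.90 with LA and 5.58 in medium. Pink1, the kinase that marks damaged mitochondria, and Wdfy3, a scaffold for aggregate clearance, were 2.77-fold and 2.61-fold higher with LPS and LA than with LPS.

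Of 21 genes of autophagosome membrane and fusion, 6 were at least 2-fold lower and 1 higher with LPS than in medium (median -0.51), beside 7.50% and 8.14% of all measured genes. With LPS and LA against LPS, 6 were higher and 3 lower (median 0.30), beside 11.5% and 12.5%. Vps18, a subunit of the HOPS tether that joins autophagosomes to lysosomes, stood at 1.54 with LPS and LA, -0.44 with LPS, 1.34 with LA and 0.82 in medium. Plekhm1, an adaptor of that tether, had 1.15, -0.68, 1.22 and 0.47. Both were lowest with LPS. Wdr45b, a relative of the WIPI genes, was 2.33-fold lower with LPS than in medium, and Tecpr1, which binds the ATG12 and ATG5 conjugate, 2.50-fold higher with LPS and LA than with LPS. Fyco1, which couples autophagosomes to kinesin, was 3.06-fold higher with LPS than in medium and 2.86-fold lower with LPS and LA than with LPS. Vmp1, a scramblase of the endoplasmic reticulum, had 3.06 with LPS and LA, 5.0 with LPS, 2.93 with LA and 4.30 in medium.

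**Figure D5:**
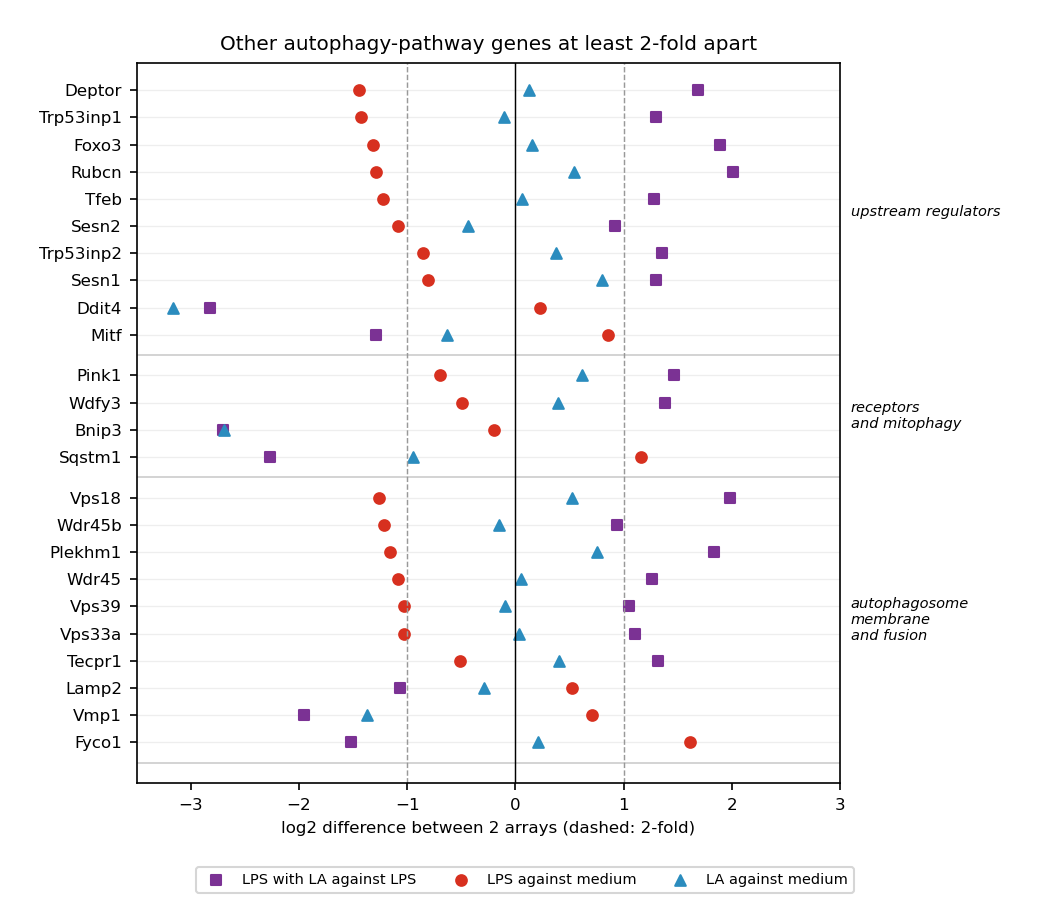
Log2 differences of the upstream regulators, receptors and mitophagy genes, and membrane and fusion genes that were at least 2-fold apart for LPS with LA against LPS (squares), LPS against medium (circles) or LA against medium (triangles); each symbol is a difference between 2 arrays without error bars, and dashed lines mark 2-fold. Deptor, Foxo3 and Rubcn have circles left of -1 and squares right of 1, while Sqstm1 and Fyco1 have the opposite order.

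Markers of other cells moved alongside these results. All 10 neutrophil and precursor markers were well above background on all 4 arrays, none being at 0, with a summed signal of 768 with LPS and LA, 680 with LPS, 749 with LA and 591 in medium, in multiples of the 75th percentile signal. Of these, 6 were at least 2-fold higher with LPS and LA than with LPS, beside 11.5% of all measured genes, among them Cxcr2 (3.41) and Elane (1.89). By the same rule 1 was lower with LPS than in medium, Cxcr2 (-1.98), beside 7.50%. By 1.5-fold 3 were lower and 0 higher there, beside 18.1% and 15.8%. The median level of the 10 markers was 3.16 with LPS and 3.51 in medium, although their sum was higher with LPS. The brightest weigh most in the sum, S100a9 (8.19 with LPS, 7.96 in medium) and Csf3r (8.24 and 7.93). With LA against medium, 6 of the 10 were at least 1.5-fold higher and 0 lower, beside 11.2% and 10.8%. The 8 macrophage and monocyte markers, all above background on the 4 arrays, summed to 60.1 with LPS and LA, 118 with LPS, 65.2 with LA and 84.1 in medium. With LPS against medium they did not move together. At least 2-fold higher were 2, Cd14 (1.88) and Fcgr1 (2.40), and 1 was lower, Cx3cr1 (-1.94), beside 8.14% and 7.50% of all measured genes. With LPS and LA against LPS, 3 of the 8 were at least 2-fold lower and 0 higher, beside 12.5% and 11.5%. The 3 were Fcgr1 (-2.83), Cd14 (-2.42) and Adgre1 (-1.45). By 1.5-fold 6 were lower and 1 higher there, beside 21.8% and 22.2%, and the median was -0.86. The 6 markers of mast cells, basophils and eosinophils summed to 100.0, 76.9, 94.4 and 47.5 in the same order of arrays, with Fcer1a not well above background in medium. Of the 5 measured with LA against medium, 3 were at least 2-fold higher and 0 lower, beside 3.12% and 3.33% of all measured genes. The 3 were Epx (1.74), Tpsb2 (1.25) and Prg2 (1.18). The 9 dendritic cell markers summed to 202 with LPS and LA, 311 with LPS, 213 with LA and 277 in medium. Of these 9, 4 were at least 2-fold lower and 1 higher with LPS and LA than with LPS, beside 12.5% and 11.5% of all measured genes. The 4 were H2-Aa (-1.53) and H2-Ab1 (-1.31), which encode MHC class II chains, and the transcription factors Zbtb46 (-1.47) and Batf3 (-1.46). The 1 higher was Cd209a (1.07). With LA against medium 5 of 9 were at least 1.5-fold lower and 1 higher, Ciita (0.90), with a median of -0.79, beside 10.8% and 11.2% of all measured genes. The part of these cells in the differences of the autophagy genes was not tested.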

How the data were processed

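Total RNA of 4 samples was hybridised to 4 Agilent single-colour (Cy3) arrays. Per the file headers, the deposited intensity is a linear signal with background subtracted, made by Feature Extraction 12.0.3.1 without scaling between arrays, and the submitters' processing notes name Agilent Feature Extraction 11.5.1.1. The authors' deposited table of 31529 spots holds the same intensities, linear and not centred, multiplied array by array by 9.30 (LPS with LA), 5.82 (LPS), 8.38 (LA) and 6.67 (medium), and its column medians are 1189, 873, 1164 and 1038. All arrays lay on 1 slide with 1 scan date, so group and array cannot be told apart. Control and outlier spots were left out (129 to 154 per array), and 0 spots were saturated.

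Levels are log2 of the processed signal minus log2 of the 75th percentile over all 59305 non-control spots. Spots of a probe were averaged, and the brightest probe stood for a gene. Of 56605 probes, 33767 matched 1 symbol through RefSeq transcript or Ensembl identifiers (GRCm38.p6), 0 several and 22838 none. The members, lists and thresholds were chosen with earlier results of these data known. Members at least 1.5-fold apart in any comparison, and the LC3 and GABARAP genes, are given on every array. From the 3 further lists the text names genes at least 2-fold apart, up to 4 each way per list, with Tfeb and Mitf added after their values were seen. A gene above background on 1 of the arrays compared has a bound, taken from its own dim value or the dimmest probe detected on that array, whichever was brighter.

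The 8 alternatives were median scaling, the 75th percentile over probes detected on every array, quantile normalization, normexp (offset 50, on the median spot signal because the files lack the mean), all probes however dim, probes detected on every array alone, the mean of a gene's probes, and the authors' table. Counting was tested on simulated data with planted differences well past 2-fold. This checks the counting and says nothing of the precision of differences between single arrays. R 4.3.3 with limma 3.58.1 and Python 3.11.15 with numpy 2.4.6 and pandas 2.3.3 were used. The number of arrays limits the precision.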

Additional observations from a re-analysis of the deposited data

Results flagged for a closer look

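Atg14 differed with LA in opposite directions without and with LPS. It was lower with LA than in medium (-0.75 log2 units) and higher with LPS and LA than with LPS (1.76), each from a single pair of arrays, and this difference between the 2 settings was not tested. The gene has 1 probe, and its level with LPS (-3.18) lay near that of the dimmest probe detected on the same array (-3.49).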

How the results depend on the processing

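No paired analysis was possible because each group has 1 array. Of 15 differences of single members past 2-fold, 4 stayed past it under every alternative that gave a value, as did 3 of 35 between 1.5-fold and 2-fold, and all 50 kept their direction. Scaling moved the median of all genes by 0.43 for LPS with LA against LPS and by -0.24 for LPS against medium in the authors' table and by at most 0.17 in the others, so medians are given relative to all genes.

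For LPS against medium, the members' median minus that of all genes was -0.54, with -0.39 under normexp, -0.70 with no filter on dim probes and -0.43 against genes of the members' middle level range, a setting chosen after seeing the data. The 4 members 2-fold lower became 0 and the 16 that were 1.5-fold lower became 6 under normexp. The 2 that were 1.5-fold higher became 1 under normexp, quantile normalization, the percentile over probes above background and the authors' table.

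For LPS with LA against LPS, the relative median of 0.36 became 0.21 under normexp, 0.50 with no filter and 0.22 in the level range. The 5 members 2-fold higher became 2 under normexp and 15 in the authors' table, the 15 that were 1.5-fold higher became 7 under normexp, and the 4 that were 1.5-fold lower became 2 with the percentile over probes above background and 1 in the authors' table. For the LA difference with LPS minus that without it, where all alternatives were added after seeing the data, the relative median of 0.52 became 0.36 under normexp and 0.63 with no filter. Its 4 members 2-fold higher became 2 under normexp and 9 in the authors' table, its 15 that were 1.5-fold higher became 7 and 23, and its 3 that were 1.5-fold lower became 1 with the percentile over probes above background, the mean of probes and the authors' table.

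For LA against medium, the relative median of -0.09 became -0.015 with no filter. The 1 member 2-fold higher became 0 under normexp, with probes detected on every array and in the authors' table, the 1 lower became 0 under quantile normalization, the mean of probes and the authors' table, and the 3 that were 1.5-fold higher and 3 lower became 0 and 1 under normexp. For LPS with LA against medium, the relative median of -0.08 became 0.023 with no filter. The 1 member 2-fold higher became 0 under normexp, median scaling, quantile normalization, probes detected on every array and the authors' table, and the 1 lower became 0 under normexp. The 2 that were 1.5-fold higher became 0 under normexp, 1 with probes detected on every array and 4 in the authors' table, and the 3 lower became 1 under normexp. For LPS with LA against LA, the 1 member 1.5-fold higher and 1 lower became 0 and 0 under normexp and 2 and 2 with the mean of probes.

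Wipi2 has no value with probes detected on every array or in the authors' table, which removes its calls by construction, and normexp shrinks differences of dim genes by its offset; the cause of the other moves was not tested. Between spots of 1 dim probe the median SD was 0.40 to 0.50, so dim members such as Wipi2, Atg9b and Atg16l2 are the least precise.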
